A study of Rattus norvegicus with 12 samples.

Results

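Drug transporters of the liver were followed in rat small hepatocytes in culture and in mature hepatocytes. The genes are the ABC transporters of subfamilies A to G and the solute carrier families SLC22 and SLCO, chosen by gene symbol on the array, with Abca12, Abcb11, Abcc2 and Slco1b2 left out. They came to 80 of the 35833 gene names on the array and to 113 probes: 12 ABCA, 8 ABCB, 9 ABCC, 4 ABCD, 4 ABCE and ABCF, 9 ABCG, 20 SLC22 and 14 SLCO genes. One of them, named Slco1a2 in the files, is Slco1a4 in the RefSeq table and is called that here. Probes of Abcb5, Slc22a21, Slco1a3 and Slc22a13l1 carry other names in the files and were not included. Of these genes, Slc22a21 was well above background on all 9 cultured and all 3 MH arrays. Small hepatocytes are small proliferating cells of adult liver that serve as progenitors of hepatocytes. Cells of this kind from F344 (DPPIV+) rat livers were grown without serum, sorted by magnetic beads for the surface protein CD44 at day 9, grown on Matrigel and, at passage 2, placed for 3 hours on one of 3 coatings. The LN111 group was on laminin-111, the LN511 group on laminin-511, and the Mat group on Matrigel, which is a basement membrane gel rich in laminin. The medium of the cells held 10 ng/mL epidermal growth factor, 10 mM nicotinamide, 1 mM ascorbic acid-2 phosphate, 0.5 mg/L insulin-transferrin-selenium and 1e-07 M dexamethasone. Since all 3 cultured groups had grown on Matrigel before, the coatings differ over the last 3 hours alone. Mature hepatocytes (MH) of the same strain were isolated from fresh livers as the control. MH differ from the cultured groups in cell type and in culture, passage and medium, and the parts of these cannot be told apart. Where a gene is said below to fall, rise or stay, its level in cultured cells is set against MH. Each of the 4 groups had 3 one-colour arrays, and "cultured" stands for the mean of LN111, LN511 and Mat. The labels do not say whether the arrays of a group stem from separate rats or dishes. The p-values therefore reflect array-to-array spread that could be technical in origin.

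Hepatocytes take up organic anions and cations from sinusoidal blood through carriers of the SLCO (organic anion transporting polypeptide) and SLC22 (organic cation and anion transporter) families. ABC proteins use ATP to move substrates outwards: bile lipids and conjugated drugs across the canalicular membrane, or conjugates back to blood across the basolateral membrane when bile secretion is impaired. ABCD proteins and part of the ABCB subfamily sit in peroxisomes, mitochondria or lysosomes, ABCC8 and ABCC9 are regulatory subunits of potassium channels, and ABCE and ABCF proteins act on ribosomes and transport nothing.

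Each gene was read by 60-base oligonucleotide probes. The results below turn in part on neighbouring genes of near-identical families, so the probes that tell them apart are shown, with their positions as the files give them on rat build rn4 and the strand on which each reads. At the P-glycoprotein locus on chromosome 4 the following probes were used, and Abcb4 was read at chr4:22005083-22005142.
Abcb1a, chr4:21795859-21795918, plus strand: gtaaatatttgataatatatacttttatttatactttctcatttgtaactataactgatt
Abcb1b, first probe, chr4:21912180-21912239, plus strand: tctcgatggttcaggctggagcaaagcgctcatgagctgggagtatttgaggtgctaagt
Abcb1b, second probe, chr4:21862438-21862497, plus strand: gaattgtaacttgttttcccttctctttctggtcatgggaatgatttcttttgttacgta
Further along the chromosome lies the Slco1a cluster, in which Slco1a4, a neighbour in the RefSeq table, had 3 probes without coordinates in the files. The Slco1a5 probe spans a gap in the genome coordinates.
Slco1a1, chr4:179431209-179431268, minus strand: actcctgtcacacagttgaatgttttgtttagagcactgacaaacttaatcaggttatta
Slco1a6, chr4:179688206-179688265, minus strand: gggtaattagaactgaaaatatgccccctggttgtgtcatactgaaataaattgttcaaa
Slco1a5, chr4:179793557-179797315, minus strand: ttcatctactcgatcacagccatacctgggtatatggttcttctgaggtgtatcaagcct
Among the 36 pairs of probes for Slco1a1, Slco1a4, Slco1a5, Slco1a6, Abcb1a and Abcb1b, 1 held a stretch of 20 bases that could be aligned without gaps at 80% identity or more. It joins the Slco1a1 probe to 1 of the 3 Slco1a4 probes, with 18 of 20 bases identical and a longest identical run of 15 bases. Hybridisation of a probe to the transcript of a neighbouring gene was not tested.

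On the 12 arrays, 52.2% to 62.7% of 58717 spots were well above background, and 0 were saturated. LN111 replicate 3 was noisier than the rest, and its repeated probes varied by 8.52% (coefficient of variation), against 3.02% to 3.87% on the other arrays. Mat replicates 1 and 3, on different slides, were unusually alike, with a robust SD of their log2 differences of 0.147. MH and Mat replicates 1 and 2 shared 1 slide, and the other 7 arrays the second slide. Levels are given on a log2 scale on which 0 is the 75th percentile of processed signal on that array. They are compared between groups for 1 probe, never between probes. Of the markers fixed for the cells, all 9 small hepatocyte, biliary or progenitor markers were higher in cultured cells than in MH, and 9 of 10 hepatocyte markers were lower. Their summed levels, in multiples of the 75th percentile, were 98.1 to 266 and 181 to 511 in cultured cells, against 41.2 to 46.8 and 1080 to 1218 in MH. All 8 Kupffer cell markers were lower in cultured cells, with a summed level of 0.167 to 1.55 in cultured cells and 20.7 to 23.3 in MH, as were 6 of 7 sinusoidal endothelial markers tested, at 0.0814 to 3.42 in cultured cells and 10.8 to 12.1 in MH. Of 4 mesothelial markers tested, 3 were higher and 1 lower in cultured cells, with a summed level of 8.29 to 35.8 in cultured cells and 0.341 to 0.448 in MH. In RNA from whole samples, fewer cells of a type and less RNA per cell cannot be told apart, and the part of these cell types in the transporter results was not tested.

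Most of the uptake carriers that could be tested were lower in cultured small hepatocytes than in MH, while the ABC families held genes that were higher and genes that were lower. Of the 80 genes, 60 had a probe well above background on every array of a group and were tested, and 51 of the 60 passed the test (limma, Benjamini-Hochberg adjusted p under 0.05 over all genes tested), 15 higher and 36 lower in cultured cells. Among all 18927 genes tested, 71.9% passed, 30.9% as higher and 41% as lower. Of 21 tested SLC22 and SLCO genes, 5 were higher and 14 lower, with a median log2 difference of -2.82. Of 32 tested ABCA, ABCB, ABCC and ABCG genes, 10 were higher and 16 lower, with a median of -0.53, against a median of -0.17 over all genes. These medians depend on the filter, since a gene that is bright in 1 group alone entered through that group: 5 of the 21 uptake genes entered through MH alone and 4 through cultured cells alone, as did 5 and 3 of the 32 ABC genes. Without a filter on dim probes the uptake median was -1.05 and the efflux median -0.60, against -0.58 for all genes. No test was made of the difference between the families. In the single groups, 47 genes passed for LN111 against MH (13 higher, 34 lower), where 65.6% of all genes passed, 27.6% as higher and 38% as lower. For LN511 they were 47 (14 and 33), beside 66.7% of all genes, 31% and 35.7%. For Mat they were 49 (14 and 35), beside 66.5% of all genes, 25.9% and 40.6%. These 3 comparisons share the MH arrays. No LN111 or LN511 array lay on the slide of MH, so in this fit their differences from MH cannot be told apart from slide. With slide as a block, the slide difference is estimated from the Mat arrays alone.

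**Figure D1:**
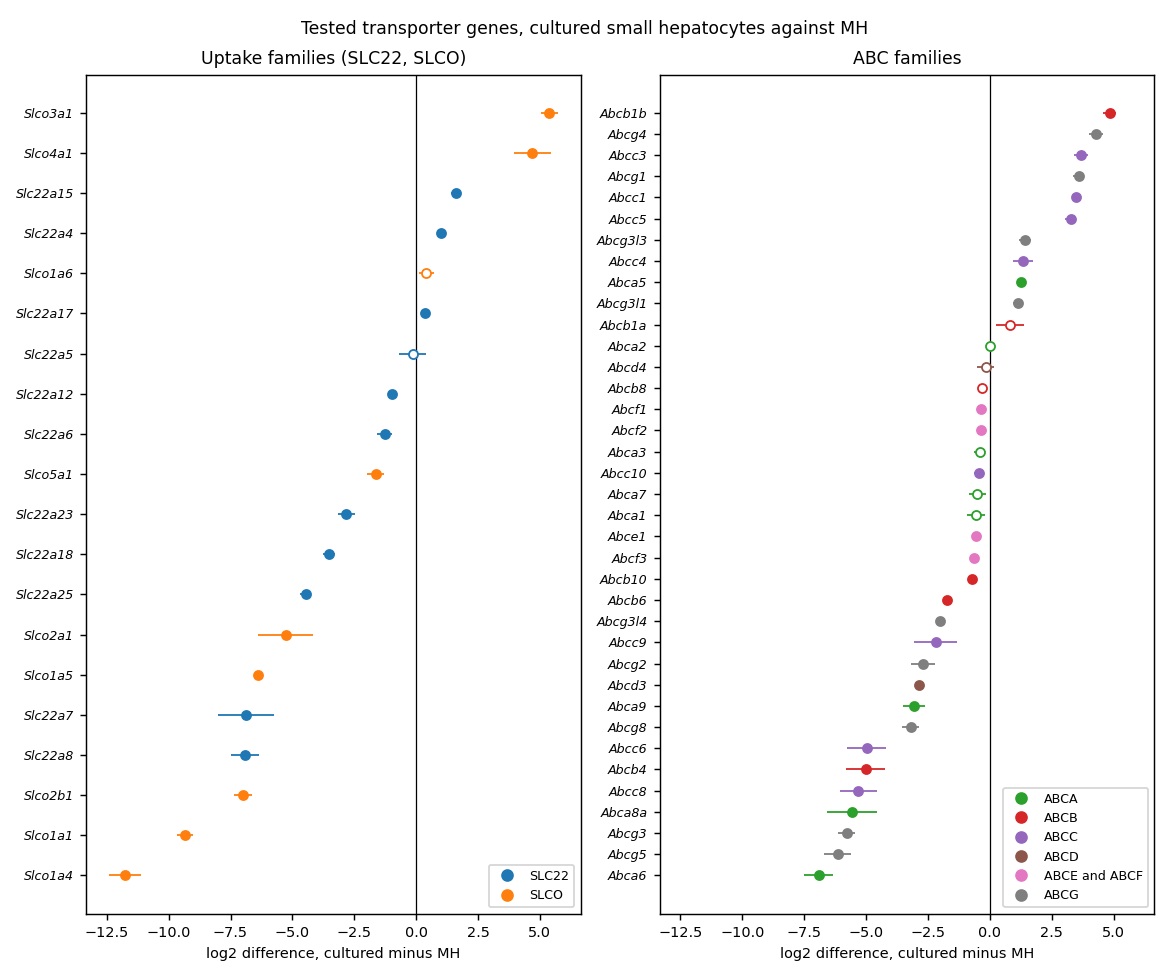
Log2 difference (x axis, cultured minus MH) of tested SLC22 and SLCO genes (left) and of tested ABC genes (right), 1 row per gene, with the standard error of the fit as bars. Filled points passed the test and open points did not. Where a gene was near background in 1 group, as Slco1a4, Slco1a1, Slco3a1, Abca6 and Abcg5 were, the plotted difference is not exact. Among genes well above background on all 12 arrays, Abcb1b lies at 4.84 and Slc22a8 at -6.91.

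Carriers that hepatocytes use to take up organic anions from blood were among the genes that were lower in cultured cells. Slco1a1 and Slco1a4, which encode the rodent organic anion transporting polypeptides of the sinusoidal membrane, were at or under background on most or all arrays in culture and above the 75th percentile in MH. Slco1a4 had levels of -5.22, -8.19 and -7.79 on LN111, -5.87, -7.00 and -6.90 on LN511, -6.05, -8.31 and -6.20 on Mat, and from 4.73 to 5.09 in MH. Its log2 difference was -11.77 ± 0.64 (SE, adjusted p = 7.78e-08, limma), a size that is not exact because the probe was well above background on only 2 of 9 cultured arrays. The other 2 probes were so on 0 of 9. Slco1a1 was not well above background on any cultured array, where its level was -8.47 to -6.78, against 1.44 to 1.74 in MH, and was at least 321-fold lower in cultured cells (adjusted p = 4.25e-09, limma). The bound sets the MH mean against the higher, on each cultured array, of the probe's own signal and the lowest signal well above background of any probe. A single probe can lie over that signal and still not be well above background. On MH replicate 1, for instance, the lowest such signal was -5.88, and Slco1a6 at -5.20 was not well above background. Here and below, "at least" thus marks an approximate bound, tied to this scaling. Slco1a5, another carrier of the cluster, was at least 34.7-fold lower, at -8.85 to -7.45 in cultured cells and -1.78 to -1.51 in MH.

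Slco1a6 lies between them in the cluster and did not follow. Its levels were -5.41, -3.98 and -4.84 on LN111, -4.74, -4.65 and -4.91 on LN511, -6.71, -6.23 and -5.76 on Mat, and -5.20, -6.15 and -5.61 in MH. The groups overlapped, and the log2 difference from MH was 0.41 ± 0.31 (SE), with an adjusted p of 0.251. It was well above background on 7 of 9 cultured arrays and on 0 of 3 MH arrays.

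Slco2b1, a carrier of steroid sulphates, had levels of -7.82 to -5.05 in cultured cells and 0.15 to 0.41 in MH, a log2 difference of -6.99 ± 0.36 (SE, adjusted p = 5.48e-08). It was well above background on 4 of 9 cultured arrays. Slco2a1, the prostaglandin transporter, stayed well above background on all 9 cultured arrays. Its level was 2.05, -1.62 and 0.31 on LN111, 1.72, -2.84 and 0.65 on LN511, 1.64, -2.12 and 1.73 on Mat, and 5.86, 4.85 and 5.62 in MH. All cultured arrays were lower than all MH arrays, by 5.27 ± 1.11 on the log2 scale (SE, adjusted p = 0.00152), and the 3 probes of the gene gave -5.35, -5.27 and -5.16.

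In the SLC22 family, both organic anion carriers of the general uptake list fell. Slc22a7, an organic anion carrier, ranged from -5.87 to -0.85 in cultured cells around a median of -3.11, and from 3.68 to 3.87 in MH, a difference of -6.87 ± 1.15 (SE, adjusted p = 3.11e-04), with -7.01 from the second probe. Slc22a8, a further organic anion carrier, was at -3.71 to -0.90 in cultured cells and 4.47 to 4.81 in MH, a difference of -6.91 ± 0.56 (SE, adjusted p = 1.49e-06). The neighbouring Slc22a6, known mainly from kidney, was below the 75th percentile in both, at -5.30 to -4.08 and -4.22 to -3.16, and its ranges overlapped. Slc22a18, an organic cation transporter-like gene, fell by 3.52 on the log2 scale and stayed above the 75th percentile, at 1.52 to 2.82 in cultured cells and 5.52 to 5.76 in MH. Slc22a25 was not well above background in culture and was at least 9.93-fold lower, and Slc22a23 fell by 2.82.

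The carriers of carnitine and related zwitterions did not follow the organic ion carriers. Slc22a5, the carnitine transporter, was at -5.54, -4.54 and -5.31 on LN111, -3.92, -3.01 and -3.35 on LN511, -4.44, -3.84 and -4.53 on Mat, and -4.77, -2.29 and -5.35 in MH. MH replicate 2 stood apart from the other MH arrays, and the log2 difference of -0.14 ± 0.54 (SE) had an adjusted p of 0.825. Without that array the value was 0.78, with an adjusted p of 0.0561. Slc22a4, which carries ergothioneine, was higher in cultured cells by 0.99 ± 0.14 (SE, adjusted p = 1.24e-04), at -1.77 to -0.13 against -2.01 to -1.81. Its second probe gave -0.17. Slc22a15, an SLC22 member related to the carnitine carriers, rose by 1.61 ± 0.19 (SE, adjusted p = 2.71e-05).

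A pair of SLCO genes went the opposite way from the liver carriers. Slco3a1 and Slco4a1, which are expressed in many tissues and carry prostaglandins and thyroid hormone, were not well above background on any MH array and were so on all 9 cultured arrays. Slco3a1 was at -2.57, -1.15 and -1.93 on LN111, -1.90, -0.87 and -1.54 on LN511, -2.22, -1.17 and -2.15 on Mat, and -7.22, -7.55 and -6.56 in MH, and was at least 20.1-fold higher in culture (adjusted p = 3.25e-07, limma). Slco4a1 was at -0.93, -3.48 and -0.39 on LN111, -1.71, -3.51 and -1.74 on LN511, -1.41, -3.89 and -1.55 on Mat, and -7.22, -6.02 and -7.07 in MH, at least 15.3-fold higher (adjusted p = 2.01e-04). On the list of 11 general uptake genes, 8 were thus lower, 2 higher and 1, Slc22a5, did not pass, with a median log2 difference of -6.87. The shares of all genes tested were 41% lower and 30.9% higher.

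Beside 30.9% of all genes higher and 41% lower, 5 of 10 drug and organic anion pumps were called higher, 4 lower and 1 did not pass. Their median log2 difference was 1.08. The rises were led by Abcb1b, 1 of the 2 rodent P-glycoprotein genes. It was at 3.14, 3.39 and 2.86 on LN111, 3.54, 3.58 and 2.92 on LN511, 3.03, 3.62 and 2.95 on Mat, and -1.24, -2.21 and -1.40 in MH. The log2 difference was 4.84 ± 0.25 (SE, adjusted p = 4.85e-08), a 28.6-fold higher signal. The second probe of the 2 printed above was well above background on 0 of 3 MH arrays. The adjacent Abcb1a, the other P-glycoprotein gene, was at -6.88 to -4.18 in cultured cells and -7.24 to -4.36 in MH. Its difference of 0.82 ± 0.57 (SE) did not pass (adjusted p = 0.216), and with normexp background correction it was -0.44 (adjusted p = 0.0124), so no direction is given for it. Abcb4, the last gene of the locus, moves phosphatidylcholine into bile and is a neighbour of Abcb1b. It fell by 5.02 ± 0.79 on the log2 scale (SE, adjusted p = 2.02e-04), at -6.19 to -2.82 in cultured cells and 0.13 to 1.15 in MH, and its second probe gave -4.58. At this locus, then, 1 gene was brighter on every cultured array than on every MH array, its neighbour was dimmer on every one, and the remaining gene overlapped.

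Of the multidrug resistance-associated proteins, Abcc1, Abcc3, Abcc4 and Abcc5 were higher in culture. Abcc1, a pump of glutathione conjugates, was at -0.79, -0.81 and -0.65 on LN111, -1.05, -1.01 and -1.17 on LN511, -0.95, -0.78 and -0.96 on Mat, and -4.45, -4.38 and -4.39 in MH. The log2 difference of 3.50 ± 0.10 (SE, adjusted p = 1.25e-09) had the smallest error of these pumps. The second Abcc1 probe was not well above background on any array. Abcc3, which returns bile salts and glucuronides to blood, was at -5.32 to -2.73 in cultured cells and not well above background in MH, at least 5.32-fold higher (adjusted p = 1.17e-06). Abcc5, an exporter of cyclic nucleotides and organic anions, rose by 3.27 ± 0.23 (SE, adjusted p = 5.08e-07), at -0.61 to 0.65 against -3.70 to -3.20. Abcc4, an exporter of bile salts and cyclic nucleotides, rose by 1.34 ± 0.41 (SE, adjusted p = 0.0130), and its second probe gave 1.85. With slide as a block Abcc4 did not pass.

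**Figure D2:**
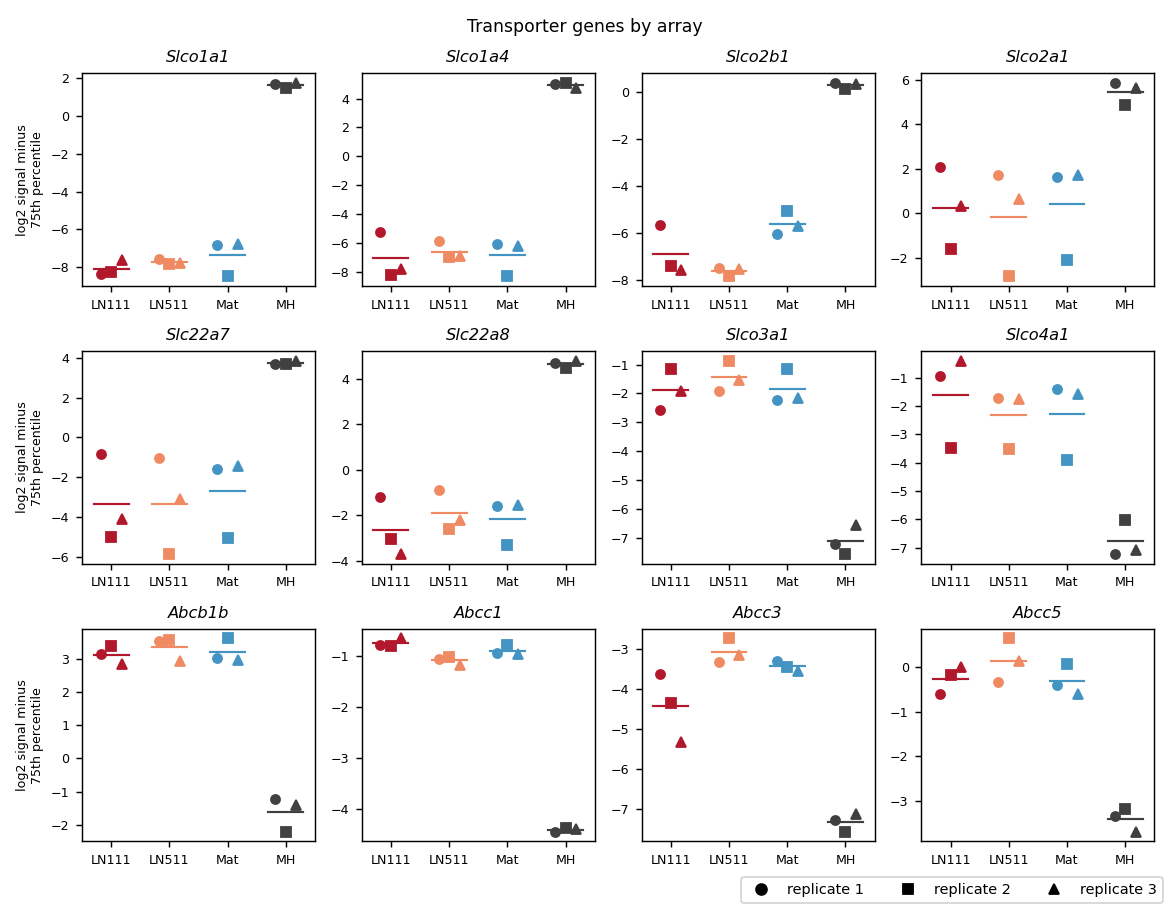
Levels of 12 transporter genes (y axis, log2 signal minus the 75th percentile of the array) on each array, by group (x axis); marker shape gives the replicate number and the bar the mean of 3 arrays. The first 6 panels show carriers that are lower on all 9 cultured arrays than on the 3 MH arrays, and the last 6 show carriers and pumps that are higher on all 9.

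The pumps called lower were Abcb4, described above, Abcc6, Abcg2 and Abcc10. Abcc6, a liver protein of the ABCC family needed to prevent ectopic calcification, was at -1.52, -4.22 and -4.27 on LN111, -1.28, -4.02 and -2.41 on LN511, -1.85, -4.51 and -1.87 on Mat, and 2.47, 1.56 and 2.23 in MH, a difference of -4.97 ± 0.78 (SE, adjusted p = 2.04e-04). Abcg2, the breast cancer resistance protein of the canalicular membrane, fell by 2.68 ± 0.49 (SE, adjusted p = 5.76e-04), at -5.05 to -3.19 against -2.14 to -0.50, and did not pass with slide as a block. Abcc10 had a small difference of -0.45 ± 0.18 (SE, adjusted p = 0.0432), with overlapping ranges. It was 0.57 without scaling between arrays and did not pass with slide or replicate number as a block, so no direction is given for it.

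Of 12 sterol and lipid transporters tested, 3 were higher and 5 lower, beside 30.9% and 41% of all genes. Abcg5 and Abcg8, the subunits of the canalicular cholesterol pump, lie next to each other on chromosome 6 and both fell. Abcg5 was at -7.74 to -5.51 in cultured cells and -1.23 to 1.18 in MH, a difference of -6.15 ± 0.55 (SE, adjusted p = 3.20e-06), and was well above background on 1 of 9 cultured arrays, so its size is not exact. Abcg8 was at -4.76 to -3.36 and -1.76 to -0.08, a difference of -3.20 ± 0.35 (SE, adjusted p = 1.35e-05). Abcg1, which passes cholesterol to high-density lipoprotein, rose by 3.59 ± 0.23 (SE, adjusted p = 2.54e-07), at 1.51 to 3.33 against -1.52 to -0.85, with 3.49 from its second probe. Its close relative Abcg4 was at -3.90 to -1.53 in cultured cells and not well above background in MH, at least 8.02-fold higher (adjusted p = 3.52e-07). Abca1, the cholesterol exporter that loads apolipoprotein A-I, did not pass, at -2.49 to -0.56 in cultured cells and -1.72 to -0.70 in MH (log2 difference -0.56 ± 0.36, SE).

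Abca6, Abca8a and Abca9, of the ABCA5-like gene group, had log2 differences of -6.91, -5.57 and -3.06, with 2, 8 and 5 of 9 cultured arrays well above background, while Abca5 of the same group rose by 1.27 ± 0.15 (SE, adjusted p = 3.03e-05). The probes of Abca5 disagreed: a second gave 2.05, and the other was well above background on 1 MH array alone. Abca2, Abca3 and Abca7 did not pass. In the ABCG family, Abcg3 fell by 5.79, at 1 of 9 cultured arrays well above background, and of the Abcg3-like genes, whose probes may share transcripts, Abcg3l3 and Abcg3l1 were higher by 1.42 and 1.14 and Abcg3l4 lower by a log2 difference of -1.99.

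Organelle transporters were lower where they passed, 5 of 7 tested with 0 higher, at a median of -1.74. Over all genes 41% were lower and 30.9% higher. Abcd3, which imports fatty acyl-CoA into peroxisomes, was at 1.54 to 2.63 in cultured cells and 4.87 to 5.42 in MH, a difference of -2.86 ± 0.16 (SE, adjusted p = 8.63e-08). Abcb6, a porphyrin-linked organelle transporter, fell by 1.74. Abcb10, the mitochondrial inner membrane transporter linked to haem synthesis, had a difference of -0.72, which did not pass with slide as a block and was 0.31 without scaling between arrays. Abce1, Abcf1, Abcf2 and Abcf3, the ribosome-acting proteins, differed little, by -0.35 to -0.64. All 4 were past the threshold, but the sign of each turned without scaling between arrays and that of Abce1, Abcf1 and Abcf2 also with quantile scaling, so no direction is given for them. Abcc8, the sulphonylurea receptor of pancreatic potassium channels, was at -8.69 to -4.53 in cultured cells and -2.82 to -0.40 in MH, a difference of -5.31 ± 0.75 (SE, adjusted p = 9.06e-05), with 2 of 9 cultured arrays well above background. Abcc9, its counterpart in muscle and mural cells, had -2.18 ± 0.87 (SE, adjusted p = 0.0429), with overlapping ranges, did not pass with slide as a block or without any 1 MH array, and is taken up with the coatings below.

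The SLCO genes had a median log2 difference of -5.27 and the SLC22 genes of -2.05. The medians were 0.44 for ABCC, -0.53 for ABCA, -0.72 for ABCB and -1.99 for ABCG. On the shorter lists of general uptake carriers and of drug and anion pumps, the medians were -6.87 and 1.08. These lists were chosen with earlier results of these data known, so their medians are descriptions. The uptake list leaves out genes called higher, such as Slc22a4, Slc22a15 and Slc22a17, and genes called lower, such as Slco1a5 and Slc22a23. Slco1a1, Slco1a4, Slco1a5 and Slco5a1 entered through MH alone, and Slco1a6, Slco3a1, Slco4a1 and Abcc3 through cultured cells alone. The SLCO median thus depends on the filter. By group, the uptake families had a median of -3.37 for LN111, -2.47 for LN511 and -2.62 for Mat, against -0.35, -0.51 and -0.89 for the efflux families. Scaling moved the median of all genes, which was -0.17 with the 75th percentile, 0.18 with quantile scaling and 0.86 without scaling. Relative to it, the uptake median was -2.65, -2.17 and -2.65 under these settings, and the efflux median -0.36, -0.57 and -0.36. Without a filter on dim probes the relative medians were -0.46 for uptake and -0.01 for efflux, and with normexp background correction -1.51 and -0.28. The split of calls was 22 higher and 25 lower without scaling and 17 and 31 with quantile scaling, beside 15 and 36. With slide as a block, 40 of the 60 genes passed, 13 higher and 27 lower. Within the slide that held MH and 2 Mat arrays, 47 passed for Mat against MH, 15 higher and 32 lower.

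**Figure D3:**
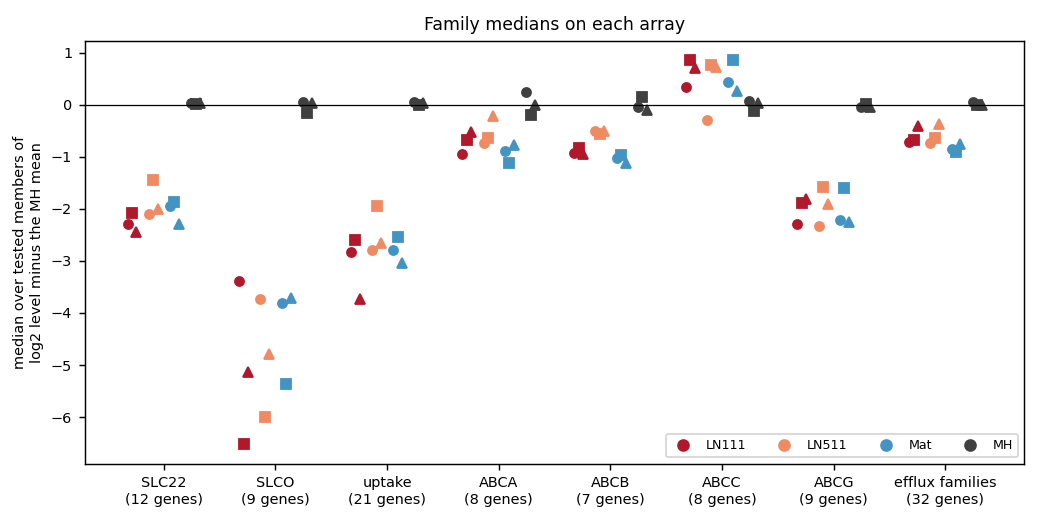
Median, over the tested genes of each family, of the level minus the MH mean of the same gene (y axis, log2), 1 point per array, coloured by group, with marker shape for replicate number. "Uptake" joins SLC22 and SLCO (21 genes) and "efflux families" joins ABCA, ABCB, ABCC and ABCG (32 genes). On each of the 9 cultured arrays the SLCO median is lower than the median of the ABCA, ABCB, ABCC and ABCG genes. Most of the SLCO genes entered through MH alone or through cultured cells alone, so this order depends on the filter.

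Partners and regulators of these transporters were lower for the most part. Of 24 genes on the list, 20 were tested, with a median of -2.70. In cultured cells 14 were lower and 2 higher, beside 41% and 30.9% of all genes. Slc10a1, the sodium-dependent bile acid carrier, had a log2 difference of -9.35 ± 0.73 (SE). Among the nuclear receptors that regulate liver transporters, Nr1i2 (the pregnane X receptor) had a difference of -3.31, Nr1i3 (the constitutive androstane receptor) of -6.32, Nr1h4 (the bile acid receptor FXR) of -5.85 and Nr0b2, its target, of -7.54. The hepatocyte factor Hnf4a differed by -1.86. Nfe2l2 and Ahr, the stress and xenobiotic sensors, did not pass, at 0.25 and -0.15. The higher genes were Slc51a, a subunit of the basolateral organic solute exporter, and the peptide carrier Slc15a1, both well above background on 0 MH arrays and on 7 and 8 of 9 cultured arrays.

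The coatings were compared within the 9 cultured arrays, where 50 transporter genes were tested. LN111 against Mat gave 0 calls among them and 0% of all 17908 genes by limma. An unadjusted p under 0.05 was found for 8 transporter genes (16%) and for 2096 of all genes (11.7%). Of the Mat arrays, replicate 3 alone lay on the slide of LN111, and the part of slide in these shares was not tested. With slide as a block that array carries the comparison. The uptake and efflux medians were then -0.37 and 0.21, against -0.18 and -0.01 in the main fit. The smallest p-values were those of Slco1a6, with a log2 difference of 1.49 ± 0.37 (SE, adjusted p = 0.344), Slc22a4, with -0.52 ± 0.19 (adjusted p = 0.373), and Slco2b1, with -1.28 ± 0.49 (adjusted p = 0.388). The 95% interval of the Slc22a4 difference was -0.96 to -0.09, unadjusted and for a gene picked here by its small p-value.

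In the main fit, which was unpaired, LN511 against Mat gave 1 call, Slco2b1, beside 7.48% of all genes, 6.52% as higher and 0.96% as lower. It was at -7.48, -7.82 and -7.53 on LN511, not well above background, and at -6.03, -5.05 and -5.67 on Mat, at least 1.85-fold lower on LN511 (adjusted p = 0.0446, limma). With normexp background correction the difference was 0.25, and it did not pass with slide as a block (adjusted p = 0.359). Deviations of same-numbered LN511 and Mat arrays correlated by 0.156 to 0.757, but LN511 replicate 1 correlated as closely with Mat replicate 3 (0.574) as with Mat replicate 1 (0.594), and LN511 replicate 3 more with Mat replicate 1 (0.224) than with its own number. A fit with the replicate number as a block called 5 of 50 genes (10%), beside 12.8% of all genes: Slco2b1, Slco1a6 (log2 difference 1.46, adjusted p = 0.0274), Slc22a5 (0.85, 0.0200), Abca3 (0.56, 0.0364) and Abcc9 (-2.75, 0.00880). With slide as a block, 0 transporter genes passed, beside 0.341% of all genes.

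LN111 against LN511 called 9 of 50 transporter genes (18%), 4 higher and 5 lower on LN111, a share near the 16% of all genes, 5.79% as higher and 10.3% as lower. Without scaling between arrays 4 were called (8%), beside 11% of all genes. The lower genes were the carnitine and ergothioneine carriers, Abcc3, Abcg1 and Abcd3. Slc22a5 differed by -1.70 ± 0.34 (SE, adjusted p = 0.0130), with the levels given above. Slc22a4 was at -1.39, -1.23 and -1.77 on LN111 and -0.57, -0.13 and -0.26 on LN511, a difference of -1.15 ± 0.19 (SE, adjusted p = 0.00738). Both were lower on all 3 LN111 arrays than on all 3 LN511 arrays. Abcc3 was at -3.62, -4.35 and -5.32 on LN111 and -3.31, -2.73 and -3.14 on LN511, a difference of -1.37 ± 0.38 (SE, adjusted p = 0.0457). Abcg1 differed by -1.11 ± 0.28 (adjusted p = 0.0324) and Abcd3 by -0.70 ± 0.18 (adjusted p = 0.0322). Some small hepatocyte, biliary or progenitor markers moved with these. The summed level of the 9 on the list was 98.1 to 155 on LN111 and 242 to 266 on LN511. Krt18 (6.10 to 6.44 and 7.14 to 7.39), Krt8, Epcam and Sox9 were lower on all 3 LN111 arrays than on all 3 LN511 arrays. Krt7, Krt19, Prom1, Spp1 and Cd44 overlapped, with Cd44 at 2.73 to 3.13 on LN111 and 2.36 to 2.88 on LN511. The part of these markers in the lower genes was not tested.

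Higher on LN111 were Abcc9, Abca9, Abcg4 and Slc22a17. Abcc9 was at -0.78, -2.78 and -0.65 on LN111, -3.71, -8.05 and -4.91 on LN511, and -1.95, -4.50 and -1.97 on Mat. The difference between the laminins was 4.16 ± 1.19 (SE, adjusted p = 0.0495). Abca9 was at least 3.42-fold higher on LN111, being not well above background on LN511 (adjusted p = 0.0475). Abcg4 differed by 1.47 ± 0.38 (adjusted p = 0.0350) and Slc22a17, a receptor for lipocalin-bound iron, by 0.63 ± 0.17 (adjusted p = 0.0399). Some stellate cell and fibroblast markers moved with these. The summed level of the 8 genes was 49.8 to 91.8 on LN111, 2.24 to 11.1 on LN511, 18.4 to 31.4 on Mat and 2.92 to 3.97 in MH. Of the 8, 3 were higher in cultured cells than in MH. The sum leans on bright probes such as Col1a1, at 5.01 to 6.05 on LN111. Col1a1, Col3a1, Pdgfrb, Des and Acta2 were higher on all 3 LN111 arrays than on all 3 LN511 arrays. Dcn, Reln and Lrat overlapped. Lrat leaned the other way, at -3.89, -1.03 and -3.91 on LN111 and -3.44, -0.43 and -1.89 on LN511. The part of these markers in the Abcc9 and Abca9 differences was not tested. With slide as a block, and within the second slide, 2 of the 9 genes passed, Slc22a4 and Slc22a5 (adjusted p = 0.0333 and 0.0393 within the slide). The same number passed with Mat replicates 1 and 3 averaged as 1 array. Leaving out 1 array at a time gave 2 to 7 calls, with 2 calls without Mat replicate 1, Mat replicate 3 or LN511 replicate 3, 3 without LN111 replicate 1 or LN511 replicate 1 or 2, and 4 without LN111 replicate 3.

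**Figure D4:**
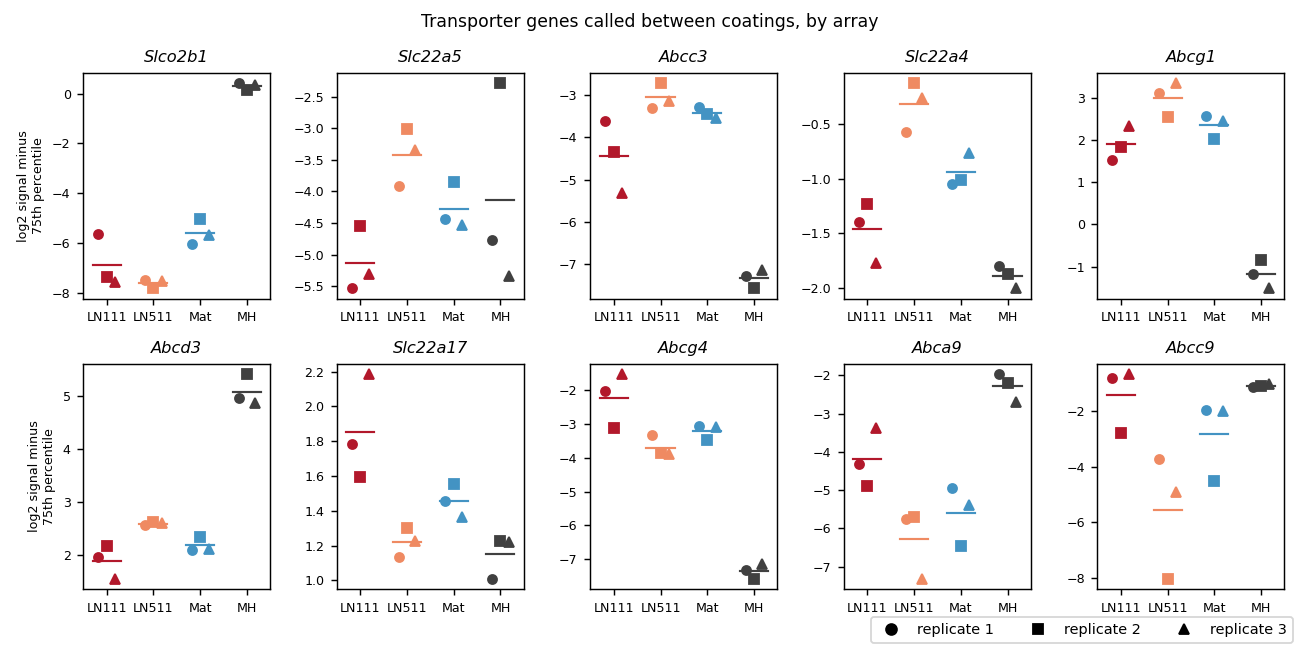
Levels (y axis, log2 signal minus the 75th percentile of the array) of the 10 transporter genes called between coatings, on each array by group (x axis); marker shape gives the replicate number and the bar the mean of 3 arrays. Slco2b1 was called for LN511 against Mat and the other 9 for LN111 against LN511, where the 3 LN111 arrays lie on 1 side of the 3 LN511 arrays in each panel.

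Within the cultured cells, many transporter levels differed more by replicate number than by coating. For 29 of 50 genes the SD of the 3 number means was larger than that of the 3 coating means, as for 39.5% of all genes. The 3 arrays numbered 2 were lower than the other 6 cultured arrays for 8 of the 50 genes (16%, and 4.08% of all genes) and higher for 4 (8%, and 5.70% of all genes). The lower ones included Slco2a1, Slc22a7, Abca8a, Slco4a1, Abcb4, Abca1 and Abcf2. Slco2a1 was at -2.84 to -1.62 on the arrays numbered 2 and 0.31 to 2.05 on the other 6, and Slc22a7 was at -5.87 to -5.01 and -4.12 to -0.85. The higher ones were Slc22a23, Slco3a1, Abcc4 and Abcg2. The arrays were set apart by their values, so these are descriptions with no test. Some hepatocyte and mesothelial markers moved with them, and others did not. Wt1, a mesothelial marker, was lowest within each coating on the array numbered 2, at -3.98 on LN111, -8.06 on LN511 and -5.34 on Mat. Hnf4a, a hepatocyte marker, was highest there on LN111 (2.53) and Mat (2.90) and lowest there on LN511 (0.60). The summed hepatocyte level was 181 to 258 on the arrays numbered 2 and 274 to 511 on the other 6, with 5 of 10 genes lower on all 3, and the summed mesothelial level was 16.2 to 35.8 and 8.29 to 16.2, with 1 of 4 genes higher on all 3. Of the 9 small hepatocyte, biliary or progenitor markers 1 was higher on all 3, and their sums overlapped. The part of these markers in the transporter levels was not tested. Without the 3 arrays numbered 2, 51 of 61 transporter genes passed for cultured cells against MH, 15 higher and 36 lower.

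**Figure D5:**
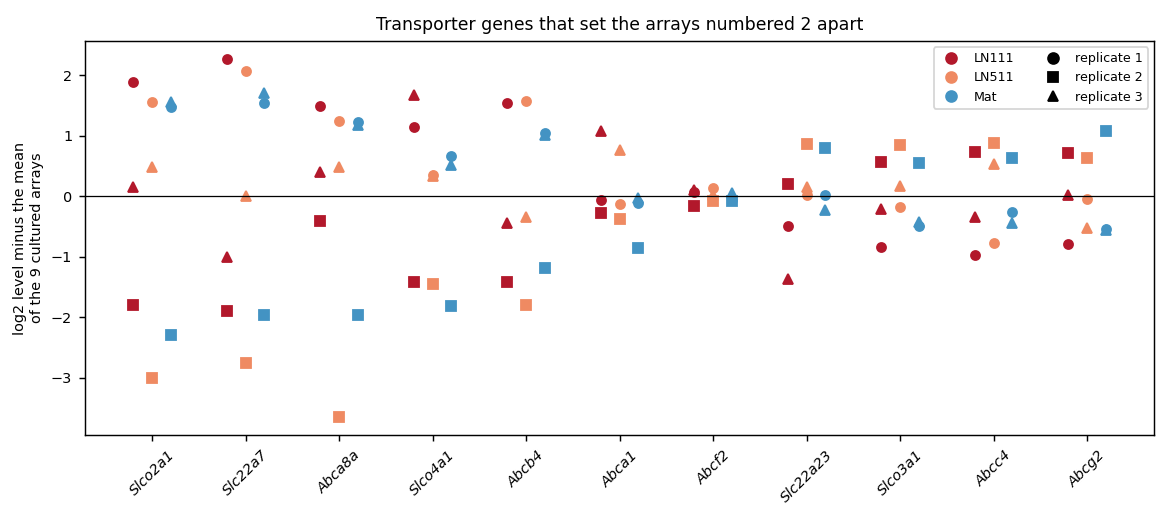
Level minus the mean of the 9 cultured arrays (y axis, log2) for transporter genes (x axis) in which the 3 arrays numbered 2 lie on 1 side of the other 6; colour gives the coating and marker shape the replicate number. Squares, the arrays numbered 2, lie lowest for the genes from Slco2a1 to Abcf2 and highest for the last 4.

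The start regions of genes that rose and genes that fell were also set side by side. RefSeq promoter windows of 300 bases (250 before the start, 50 after, build GRCr8) matched 66 of the 80 genes. The windows below are those of Abcb1b and Abcc1, which rose, and of Slco1a1 and Slco1a5, which fell. Capitals mark matches to any of 3 short motifs, on either strand. The GC box was searched as GGGCGG. The second motif was the CCAAT box, with those letters. The TATA box was searched as TATAAA.
Abcb1b, chr4:26279980-26280279, minus strand: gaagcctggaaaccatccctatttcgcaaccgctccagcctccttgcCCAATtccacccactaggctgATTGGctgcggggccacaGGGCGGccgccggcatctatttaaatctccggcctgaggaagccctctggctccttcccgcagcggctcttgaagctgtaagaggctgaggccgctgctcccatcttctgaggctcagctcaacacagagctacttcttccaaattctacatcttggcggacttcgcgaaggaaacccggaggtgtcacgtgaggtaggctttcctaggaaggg
Abcc1, chr10:1162318-1162617, minus strand: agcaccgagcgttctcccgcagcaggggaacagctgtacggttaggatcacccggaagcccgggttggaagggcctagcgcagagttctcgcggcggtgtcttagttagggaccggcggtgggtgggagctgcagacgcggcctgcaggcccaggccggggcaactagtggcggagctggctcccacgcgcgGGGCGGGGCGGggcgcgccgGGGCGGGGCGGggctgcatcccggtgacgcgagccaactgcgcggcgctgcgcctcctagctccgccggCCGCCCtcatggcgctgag
Slco1a1, chr4:176681943-176682242, minus strand: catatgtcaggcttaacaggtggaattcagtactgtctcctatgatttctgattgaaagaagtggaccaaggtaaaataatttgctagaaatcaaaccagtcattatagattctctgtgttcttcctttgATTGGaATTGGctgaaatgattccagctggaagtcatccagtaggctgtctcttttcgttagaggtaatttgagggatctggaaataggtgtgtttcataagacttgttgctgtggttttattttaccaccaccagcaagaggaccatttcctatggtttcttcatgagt
Slco1a5, chr4:176963763-176964062, minus strand: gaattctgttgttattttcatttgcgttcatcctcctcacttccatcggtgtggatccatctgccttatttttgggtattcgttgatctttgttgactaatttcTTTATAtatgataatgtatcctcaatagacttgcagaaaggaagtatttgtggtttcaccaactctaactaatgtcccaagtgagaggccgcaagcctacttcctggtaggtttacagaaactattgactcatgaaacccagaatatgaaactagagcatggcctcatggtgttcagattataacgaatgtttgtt
Abcc1 holds 5 GC boxes, of which neighbours share a base in places, and Abcb1b 1, with 2 CCAAT boxes beside it in Abcb1b. Slco1a1 and Slco1a5 hold 0 GC boxes, Slco1a1 2 CCAAT boxes and Slco1a5 1 reverse TATA match. These windows are examples, and other genes differ from them: Abcg2, which was lower, holds 4 GC boxes, and Abcg4, which was higher, holds 0.

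Over the genes with a window, a GC box stood in 10 of 12 that were higher in cultured cells, 13 of 28 that were lower and 6 of 9 that did not pass, and in 34.9% of 27457 promoters. A TATA box stood in 0 of 12, 6 of 28 and 2 of 9, and in 14.3% of all promoters, and a CCAAT box in 3 of 12, 12 of 28 and 4 of 9, and in 37.7%. The other motifs given here, searched on both strands, were rarer. C/EBP (TTGCNNAA) was in 1 of 12, 4 of 28 and 10.5%, AP-1 (TGANTCA) in 0 of 12, 1 of 28 and 7.33%, and a half-site of NRF2 (TGACNNNGC) in 2 of 12, 4 of 28 and 12.2%. The AP-1 and NRF2 letters can overlap. A match is a description of letters and not a binding site.

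Of the 20 transporter genes tested in neither fit, 14 were well above background on no array. Of these 14, 10 were SLC22 and SLCO genes, several known from other organs, such as Slc22a2 and Slco4c1 of kidney and Slco1c1 of brain. Abca4 was well above background on 5 of 9 cultured arrays and 0 of 3 MH arrays, and Abcb9 on 0 and 2.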

How the data were processed

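RNA from 12 samples was labelled with Cy3 (100 ng each, per the labels' protocols) and hybridised to one-colour Agilent arrays. The deposited scanner files, read with Agilent Feature Extraction 10.7 per the submitters' processing notes, give a linear intensity (processed signal, to 3 significant digits) with background and spatial trend removed, per the file headers. The authors' deposited value table holds the same intensity, unscaled between arrays, with column medians of 31.8 to 130.8.

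Log2 intensity minus the array's 75th percentile was computed without control and outlier spots, and spots of a probe were averaged (45489 of 45598 probes kept). Testing was limited to genes with a probe that every array of at least 1 group measured well above background; the brightest such probe represented its gene. limma 3.58.1 in R 4.3.3 was used, two-sided, with Benjamini-Hochberg adjustment over all genes and a threshold of 0.05. MH comparisons came from 1 fit of 12 arrays and coating comparisons from 1 fit of 9. The fit was tested on simulated data. Genes, lists and tests were chosen with earlier results of these data known. Named were all tested genes of the uptake and drug efflux lists, the 3 largest changes each way in other families, and, between coatings, called genes or the 3 smallest p. Alternatives covered scaling, background, filters, probes, slide, replicate block and left-out arrays. Deviations from group means of same-numbered cultured arrays correlated by 0.0894 to 0.757. Every LN511 and Mat pair was over 0.1, although replicates 1 and 3 also correlated across numbers, and not every LN111 pair was. The main coating fit was unpaired, and a fit with the replicate number as a block is given as an alternative. The number of arrays limits the precision. A few genes and motifs are not reported here and are left out of the figures that name genes.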

Additional observations from a re-analysis of the deposited data

How the results depend on the processing

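With a strict filter on dim probes fewer transporter genes were tested, and 30 passed for cultured cells against MH, 29 for LN111, 28 for LN511 and 30 for Mat. The uptake median for cultured cells against MH was -2.05 with that filter, -1.05 without a filter, -2.21 without the arrays numbered 2 (an alternative chosen after seeing the data), -1.79 without scaling, -1.89 with normexp, -1.99 with quantile scaling and -2.33 with slide as a block. The efflux median was 0.50 without scaling and -0.32 with the strict filter. For LN111 against Mat the uptake and efflux medians were -0.83 and -0.66 without scaling, and the efflux median was 0.21 with slide as a block and within slide 2. For LN511 against Mat, 0 transporter genes passed with limma without the arrays numbered 2 or with Mat replicates 1 and 3 averaged (also chosen after seeing the data). The count was also 0 without a filter, with the strict filter or with slide as a block, which called 0.341% of all genes. It was 2 with the mean of probes and 6 with normexp. Without scaling 20 passed (40%), beside 61.2% of all genes, and the medians were -1.03 and -0.93. With the replicate block 5 passed (10%), beside 12.8% of all genes. For LN111 against LN511, 2 passed with Mat replicates averaged, without a filter or with slide as a block, which called 12.7% of all genes. Without scaling 4 passed (8%), beside 11% of all genes, and the efflux median was 0.40. With the replicate block 13 passed (26%), beside 25% of all genes, although the LN111 pairs did not all pass the pairing check. The efflux median was -0.24 with the strict filter. The replicate block called 51 genes for cultured cells against MH.

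The sign turned without scaling for Slc22a5 (0.89), Abcc10 (0.57), Abcb10 (0.31), Abcf3 (0.39), Abce1 (0.47) and Abcf2 (0.66), with quantile scaling for Abce1 (0.022) and Abcf2 (0.23), with slide as a block for Slc22a5 (0.16) and without MH replicate 2 for Slc22a5 (0.78), whose values without 1 array ranged from -0.74 to 0.78. With normexp it turned for Abcb1a (-0.44) and for Slco2b1 in LN111 against Mat (0.038) and LN511 against Mat (0.25). The calls of Abcf1 and Slc22a12 also turned without scaling, and that of Abcf1 with quantile scaling. The causes were not tested. Leaving out 1 array at a time gave 45 to 52 genes for cultured cells against MH, an uptake median of -2.94 to -2.22 and an efflux median of -0.69 to -0.45. It gave 2 to 7 genes for LN111 against LN511, beside 1674 to 3654 of all genes. For LN511 against Mat it gave 0 to 2, beside 575 to 1804 of all genes. The efflux median was -0.32 to -0.018 for LN111 against LN511 and -0.057 to 0.18 for LN111 against Mat. Levels near background limit the carriers that were not well above background in a group to approximate bounds.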
